A study of Drosophila melanogaster with 2 samples.

Results

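The vacuolar ATPase genes of Drosophila melanogaster were described in chromatin immunoprecipitation (ChIP-seq) peak lists of the protein CG9817 (CG43347). A gene was a member if it was protein-coding, lay on 1 of the 6 major chromosome arms and had a name beginning with Vha. The rule used no measured value and found 33 of 13945 protein-coding genes. Both samples came from 1 transgenic line that stably expressed CG9817 with GFP fused to its C terminus, and an anti-GFP antibody pulled down the chromatin. They were whole embryos aged 10 to 24 h, labelled biological replicates 1 and 3, and formed 1 group. No group lacking the tagged protein was analysed here, and each value averages over every cell type of the embryo. The deposited lists were the full list of each replicate, the list of both replicates pooled, and a list filtered by an irreproducible discovery rate (IDR) threshold, here called the IDR list. Each full list held exactly 30000 peaks, the IDR list held 5038 peaks that were the strongest of the pooled list, and the depth of the libraries is unknown.

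The vacuolar ATPase is a proton pump of membranes that acidifies endosomes and lysosomes and drives transport across epithelia such as the Malpighian tubule. Its V1 sector, in the cytosol, hydrolyses ATP with subunits A and B and turns a rotor that contains D and F. Its V0 sector, in the membrane, carries protons between subunit a and a ring of proteolipid subunits c and c″. In flies several subunits are encoded by more than 1 gene, of which 1 or a pair serve most tissues, here called principal. The others are here called alternate, and some of them are used in few tissues. These classes were assigned from background knowledge and could not be checked against expression, which the lists do not hold. They are least sure for the small subunit e and for the minor c genes. No tissue was assigned to the alternate genes of subunits c and e, to Vha100-5 or to VhaAC45RP.

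The DNA under 7 of the promoter peaks in the IDR list is printed first, because it shows what the peak summits lay on. Each stretch runs 5′ to 3′ on the strand of its Vha gene, reaches at most 60 bp to either side of the summit, and was shortened where it met an annotated exon. Capitals mark CGATA or its reverse complement TATCG, and positions refer to genome release 6 (dm6). The catalytic A subunit genes Vha68-2 (chr2L:12974139-12974259, plus strand) and Vha68-1 (chr2L:13004185-13004305, minus strand) come first, followed by the B subunit gene Vha55 (chr3R:12627830-12627920, minus strand) and the peripheral stalk gene Vha13 (chr3R:19644425-19644545, minus strand). Next are the ring genes Vha16-5 (chr2L:10737257-10737344, minus strand) and VhaPPA1-1 (chr3R:14904187-14904307, minus strand) and the subunit e gene VhaM9.7-c (chr3L:4186866-4186940, minus strand). For contrast, the last 2 stretches end just before the annotated starts of Vha68-3 (chr2L:12978665-12978785, plus strand) and VhaPPA1-2 (chr3R:14900278-14900398, minus strand), which are alternate genes for the same subunits with no IDR promoter peak.
Vha68-2: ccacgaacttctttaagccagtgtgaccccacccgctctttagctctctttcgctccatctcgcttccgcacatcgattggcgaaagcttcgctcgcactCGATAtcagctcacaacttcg
Vha68-1: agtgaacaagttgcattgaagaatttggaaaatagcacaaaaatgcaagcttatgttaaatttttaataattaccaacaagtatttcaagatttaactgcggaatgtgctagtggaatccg
Vha55: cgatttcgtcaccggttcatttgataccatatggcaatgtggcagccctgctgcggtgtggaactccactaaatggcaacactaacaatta
Vha13: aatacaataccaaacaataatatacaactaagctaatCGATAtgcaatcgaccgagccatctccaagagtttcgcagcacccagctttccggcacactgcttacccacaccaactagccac
Vha16-5: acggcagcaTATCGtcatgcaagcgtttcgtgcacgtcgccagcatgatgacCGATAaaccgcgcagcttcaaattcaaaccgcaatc
VhaPPA1-1: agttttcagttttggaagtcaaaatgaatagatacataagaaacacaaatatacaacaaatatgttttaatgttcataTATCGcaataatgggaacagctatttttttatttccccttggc
VhaM9.7-c: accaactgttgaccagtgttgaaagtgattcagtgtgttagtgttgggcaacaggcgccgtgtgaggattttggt
Vha68-3: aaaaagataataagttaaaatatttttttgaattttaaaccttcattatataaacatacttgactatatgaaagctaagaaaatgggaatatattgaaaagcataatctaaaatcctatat
VhaPPA1-2: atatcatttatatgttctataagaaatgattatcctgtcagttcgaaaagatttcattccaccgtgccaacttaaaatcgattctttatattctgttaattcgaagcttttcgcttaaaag
The stretch at Vha68-2 held 53.7% G and C, against 19.0% upstream of Vha68-3. The stretch of the other principal A gene, Vha68-1, held 31.4%. That at VhaPPA1-1 held 28.1%, against 29.8% upstream of VhaPPA1-2. Base composition was thus not alike among the stretches under peaks, and the windows differ, being placed at summits for 7 genes and before a start for the last 2. Of the 7 stretches under peaks, 4 held CGATA, and those of Vha68-1, Vha55 and VhaM9.7-c did not. Neither alternate stretch held it, although the longer promoter window of Vha68-3, described with the motifs, did. No share of coding genes was counted for stretches of this length, so these counts have no background. All 11 peaks are counted with the motifs.

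A promoter peak was defined as one whose summit lay within 500 bp of any annotated transcription start site (TSS) of the gene. In the IDR list 11 of the 33 Vha genes had such a peak (33.3%), against 23.7% of all coding genes. In the pooled list 21 Vha genes had one (63.6%), against 48.2% of coding genes. The full list of replicate 1 gave 25 Vha genes (75.8%), against 53.0%, and that of replicate 3 gave 18 (54.5%), against 45.4%. The Vha share was therefore above the background in each of the 4 lists, by more in replicate 1 than in replicate 3. These lists are not independent, since the pooled and IDR lists were built on the same 2 libraries. When each replicate was limited to its 5038 strongest peaks, replicate 1 gave 16 Vha genes (48.5%), against 26.8%, and replicate 3 gave 10 (30.3%), against 21.8%. When an IDR peak was given only to the gene with the nearest TSS, 7 Vha genes kept one (21.2%), against 17.0%. These shares were counted over genes, which are not replicates, in 2 libraries of 1 group, and no test was made of them.

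Across the 4 lists, 17 Vha genes had a promoter peak in the full lists of both replicates, 8 in replicate 1 alone and 1, Vha16-3, in replicate 3 alone. The other 7 had none in any list (21.2%), against 5396 of all coding genes (38.7%). All 7 were alternate genes: Vha68-3, Vha36-2, Vha100-3, Vha16-2, Vha16-4, VhaM9.7-d and VhaAC45RP. As 7 of the 18 genes of that class, they make a share near the 38.7% of all coding genes. By sector, 6 of the 13 V1 genes, 5 of the 18 V0 genes and neither of the 2 accessory genes had an IDR promoter peak. These are shares of 46.2% for V1 and 27.8% for V0, against 23.7% of coding genes. In the pooled list the order turned, with 61.5% of V1 and 66.7% of V0 genes against 48.2%.

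**Figure D1:**
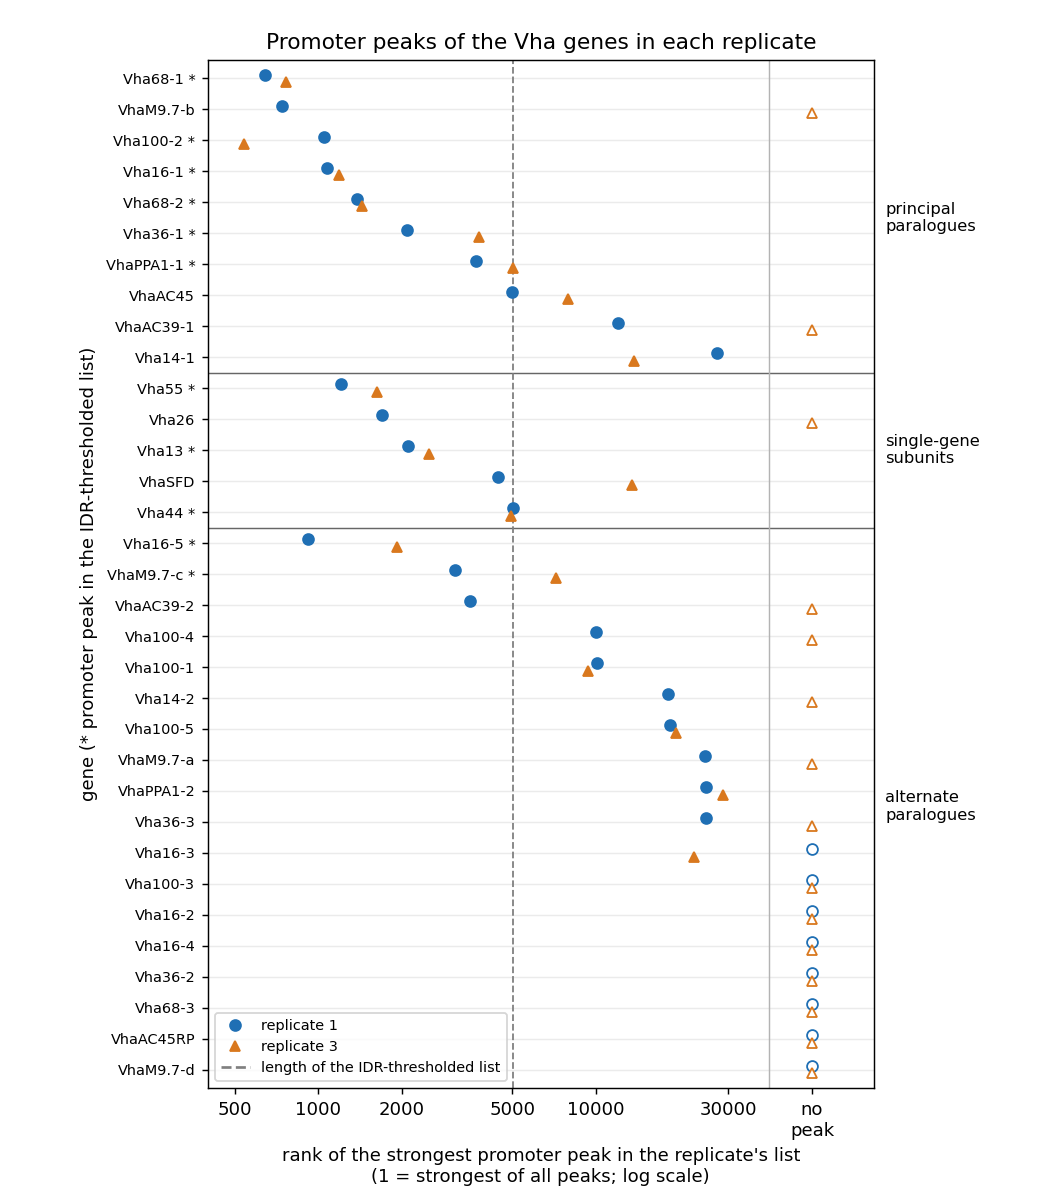
Rank of the strongest promoter peak of each Vha gene in the full lists of replicate 1 (circles) and replicate 3 (triangles), on a log axis where 1 is the strongest of 30000 peaks, with genes grouped by class, open symbols for no promoter peak, an asterisk for a peak in the IDR list and a dashed line at rank 5038. Most genes with an asterisk lie left of the line in both replicates, VhaM9.7-b and Vha26 have strong peaks in replicate 1 alone, and 7 alternate genes have open symbols for both.

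Within V1, the strongest promoter peak was at Vha68-1, which encodes the catalytic A subunit. It spanned chr2L:13004096-13004355 with its summit 138 bp upstream of the TSS. Its signal, the authors' own value per peak on a scale the sources do not define, was 619 in the IDR list, where it ranked 697, with 1 the strongest. Signal was used here only to rank peaks within a list. The same site had signal 271 (rank 643) in replicate 1 and 354 (rank 766) in replicate 3, so both libraries placed it among their strongest peaks. The other principal A gene, Vha68-2, had its peak at chr2L:12974111-12974309, 123 bp upstream, with signal 400 (rank 1405). Replicate 1 gave that site 161 (rank 1380) and replicate 3 gave it 239 (rank 1435). Vha55, the only gene for the nucleotide-binding B subunit, had a peak at chr3R:12627773-12627892, 31 bp upstream, with signal 393 (rank 1436). In replicate 1 the value at Vha55 was 177 (rank 1204) and in replicate 3 it was 220 (rank 1625). The third A gene, Vha68-3, had no promoter peak in any list. A like rank in both replicates is partly fixed for any peak of the IDR list, since that list was chosen on the replicates.

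The remaining V1 promoters in the IDR list were weaker. Vha13, the only gene for the stalk subunit G, had a peak at chr3R:19644458-19644556, 99 bp upstream, with signal 269 (rank 2341), and 117 (rank 2110) in replicate 1 and 156 (rank 2511) in replicate 3. Vha36-1, the principal gene for the rotor subunit D, had a peak at chr2R:15541212-15541561, 48 bp upstream, with signal 225 (rank 2852), and 118 (rank 2086) in replicate 1 and 107 (rank 3795) in replicate 3. Vha44, the only gene for subunit C, the stator piece that regulates assembly of V1 on V0, had a peak at chr2R:16336544-16336893, 82 bp upstream. At signal 133 and rank 4894 it lay near the lower end of the IDR list, whose weakest peak had signal 129. The replicates gave the Vha44 peak 52.4 (rank 5030) in replicate 1 and 84.0 (rank 4947) in replicate 3.

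Within V0, the strongest promoter peak belonged to Vha100-2, the principal gene for subunit a, which forms the proton half-channels. It spanned chr3R:18397101-18397318, lay 302 bp upstream of an inner TSS and within an intron of a longer transcript, and had signal 629 (rank 675), the highest of all Vha promoter peaks in the IDR list. Replicate 1 gave it 196 (rank 1043) and replicate 3 gave it 438 (rank 539). The 5′-most start of Vha100-2 had only weaker peaks, none of them in the IDR list. The strongest lay 138 bp upstream in the pooled list, with signal 119 (rank 5488). Near that site the signal was 55.9 (rank 4710) in replicate 1 and 67.1 (rank 6354) in replicate 3. Vha16-1, the principal gene for the ring subunit c, had a peak at chr2R:6633167-6633339, 148 bp upstream, with signal 456 (rank 1158). It had 192 (rank 1072) in replicate 1 and 276 (rank 1190) in replicate 3. VhaPPA1-1, the principal gene for the ring subunit c″, had a weaker peak at chr3R:14904072-14904421, 186 bp upstream, with signal 154 (rank 4237), and 70.9 (rank 3700) and 82.9 (rank 5012) in replicates 1 and 3. These 3 principal genes code for the proton path itself.

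Only 2 of the 18 alternate genes had an IDR promoter peak, and neither of these was assigned a tissue. Vha16-5, an alternate gene for the ring subunit c, had a peak at chr2L:10737214-10737402, 274 bp upstream, with signal 403 (rank 1388), 214 (rank 918) in replicate 1 and 194 (rank 1913) in replicate 3. VhaM9.7-c, an alternate gene for subunit e, had a peak at chr3L:4186705-4187054, 15 bp upstream, with signal 148 (rank 4376). Replicate 1 gave it 83.4 (rank 3103) and replicate 3 gave it 60.9 (rank 7151), outside the strongest 5038 of that replicate. Of this pair the peak at Vha16-5 was the stronger, and it lay nearer to a neighbouring gene than to Vha16-5.

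The 11 IDR promoter peaks had a median rank of 1436 and a median signal of 393, against 1888 and 319 over the 3309 coding genes with such a peak. All 11 summits lay upstream of the TSS, at 15 to 302 bp with a median of 123 bp, while 91.0% of the 3309 genes had theirs upstream. All 11 peaks overlapped a peak in the full list of each replicate, with summits within 100 bp. At 50% reciprocal overlap 7 of the 11 did so, and the 4 that missed it were the narrow peaks of Vha13, Vha16-1, Vha16-5 and Vha55.

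**Figure D2:**
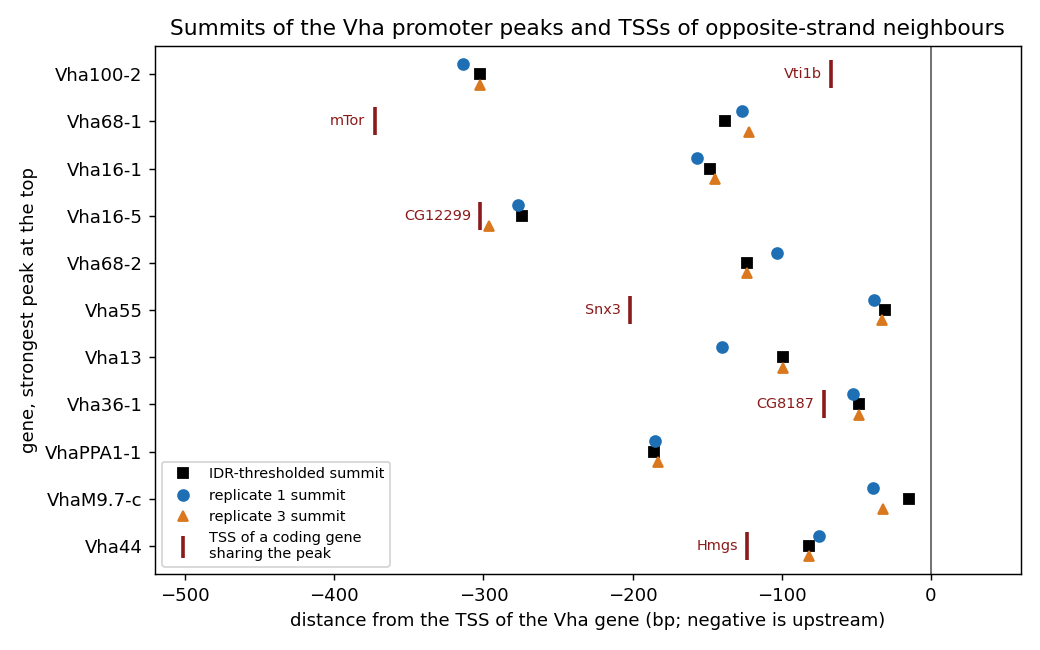
Distance from the TSS, in bp with upstream negative, of the IDR promoter summit (squares) and of the summits in replicate 1 (circles) and replicate 3 (triangles) for the 11 Vha genes, with a bar at the TSS of a coding gene that shared the peak. The IDR summits lie 15 to 302 bp upstream of the Vha start, and 6 of the 11 peaks are shared.

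At 6 of the 11 genes (54.5%) the peak also lay within 500 bp of the TSS of another coding gene, against 2008 of the 3309 coding genes (60.7%), so sharing was not more frequent at Vha genes. In each case the neighbour was transcribed in the opposite direction from a start close by. The Vha68-1 peak lay between Vha68-1 and mTor, the kinase of the TOR growth pathway, whose starts were 373 bp apart. Its summit was 138 bp from the start of Vha68-1 and 235 bp from that of mTor. The peak at Vha55 was shared with Snx3, a sorting nexin of endosomes, and the 2 starts were 202 bp apart. There too the summit was nearer to the Vha gene, at 31 bp against 171 bp for Snx3.

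The other 4 shared peaks were nearer to the neighbour. The summit at Vha100-2 was 302 bp upstream of an inner start of that gene and 235 bp downstream of the start of Vti1b, a SNARE protein of endosomal fusion. These starts were 67 bp apart, so the summit did not lie between them. At Vha16-5 the summit was 274 bp from the Vha start and 28 bp from that of CG12299. At Vha36-1 it was 48 bp from the Vha start and 24 bp from that of CG8187. At Vha44 it was 82 bp from the Vha start and 41 bp from that of Hmgs, the HMG-CoA synthase of the mevalonate pathway. A peak within 500 bp of the starts of a pair of genes cannot be given to either gene from these lists. Of the 11 genes, Vha68-2, Vha13, Vha16-1, VhaPPA1-1 and VhaM9.7-c had a peak within reach of no other coding gene.

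The principal genes had IDR promoter peaks more often than the alternate genes, with 6 of 10 against 2 of 18 (11.1%), and the subunits with a single gene had them in 3 of 5 cases, with 23.7% of all coding genes as background. In the pooled list the counts were 9 of the 10 principal, 4 of the 5 single and 8 of the 18 alternate genes (44.4%), against 48.2% of coding genes. Replicate 1 listed all 10 principal, all 5 single and 10 of the alternate genes (55.6%), against 53.0% of coding genes. Replicate 3 listed 8 principal, 4 single and 6 alternate genes (33.3%), against 45.4%. Alternate genes had the lowest share of the 3 classes in each list, but in the pooled list and in replicate 1 they lay near the share of all coding genes. Of the 7 alternate genes regarded as testis-restricted, which are Vha68-3, Vha36-2, Vha36-3, Vha14-2, Vha100-3, VhaPPA1-2 and VhaAC39-2, none had an IDR promoter peak. Replicate 1 listed 4 of these 7 (57.1%), near the 53.0% of coding genes, and replicate 3 listed 1 (14.3%), against 45.4%. The difference between classes is a description of these lists and was not tested.

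**Figure D3:**
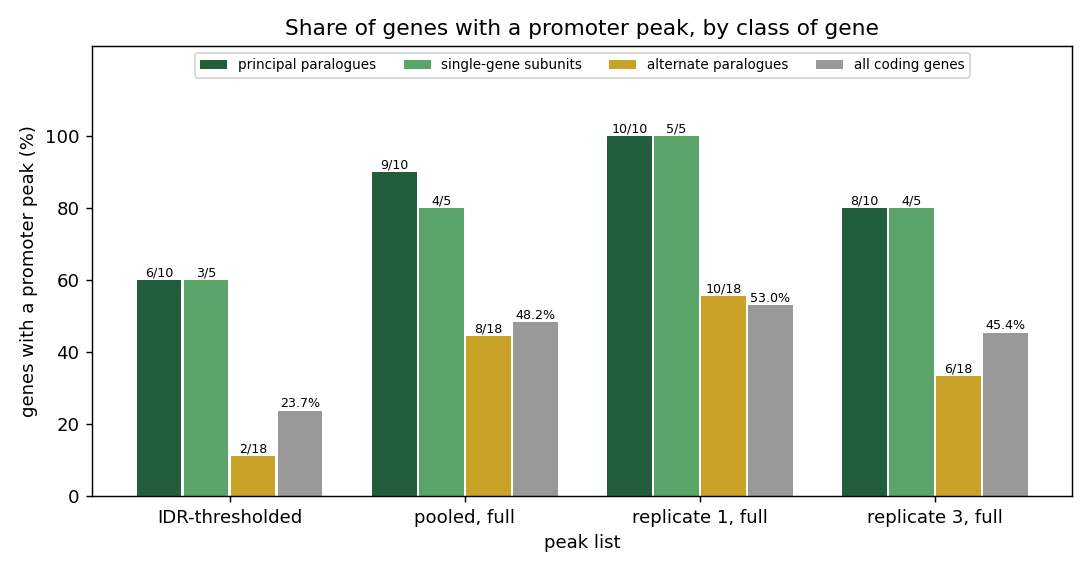
Bars give the percent of genes with a promoter peak in the IDR, pooled, replicate 1 and replicate 3 lists, for principal, single-gene and alternate Vha genes and for all coding genes, with the count of genes or the percent above each bar. In the IDR list alternate genes lie at 11.1%, below the 23.7% of all coding genes, while 6 of 10 principal genes had a peak there.

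Several paralogues are tandem neighbours, which sets them in the same stretch of chromosome. Vha68-2 and Vha68-3 lay on the same strand with 178 bp between the genes. The start of Vha68-2 carried the rank 1405 peak, and Vha68-3 had no promoter peak in any list. Vha100-2 and Vha100-4 were separated by 517 bp, and Vha100-4, the midgut gene for subunit a, had weak peaks only, with signal 43.9 (rank 21828) in the pooled list and 28.4 (rank 10019) in replicate 1. VhaPPA1-1 and VhaPPA1-2 were separated by 2052 bp. VhaPPA1-2 had signal 44.0 (rank 21712) in the pooled list, 16.6 (rank 24812) in replicate 1 and 27.4 (rank 28682) in replicate 3, with the summit of replicate 1 lying 399 bp downstream of the start. In each of these pairs the principal gene had the IDR peak and its neighbour did not. The peak counted for Vha100-2 was, however, nearer to Vti1b, at 235 bp against 302 bp. Vha16-3 and Vha16-2, both alternate genes, were separated by 985 bp, and neither had an IDR promoter peak.

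Of the Vha promoter peaks among the strongest 5038 of replicate 1, 3 overlapped no peak of the pooled list or of replicate 3. VhaM9.7-b, taken as the principal gene for subunit e, had signal 247 (rank 741) at chr3L:21539424-21539639, 304 bp upstream. The nearest summit of replicate 3 was 22865 bp away. Vha26, the only gene for the stalk subunit E, had signal 142 (rank 1688) at chr3R:5591379-5591714, 216 bp upstream, and the nearest summit of replicate 3 was 9705 bp away. VhaAC39-2, a testis gene for subunit d, had signal 74.2 (rank 3523) at chr3R:23159345-23159680, 197 bp upstream. The peak at VhaM9.7-b was 111 bp from the start of COX8, a cytochrome c oxidase subunit, and that at Vha26 was 88 bp from the start of noi, a splicing factor. Of the 5038 strongest peaks of replicate 1, 132 (2.62%) had no overlapping peak in the pooled list or in replicate 3, and of its strongest 1000, 5 had none. The same counts for replicate 3 were 15 (0.298%) and 1. These 3 sites account for part of the higher Vha count in replicate 1, and why they are missing from the pooled list was not tested.

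The strongest 5038 peaks of replicate 1 held promoter peaks of 2 further Vha genes that had none in the IDR list. VhaSFD, the only gene for the regulatory subunit H, had signal 59.1 (rank 4431) in replicate 1, 101 bp upstream. Around the same site replicate 3 had 37.5 (rank 15600) and the pooled list 91.2 (rank 7221), both 59 bp upstream. The strongest promoter peak of VhaSFD in replicate 3, with 40.3 (rank 13515), was another one, 375 bp downstream in coding sequence. VhaAC45, the principal accessory glycoprotein gene, had 52.9 (rank 4986), 56.4 (rank 7904) and 112 (rank 5787) in the same 3 lists, so it lay just below the IDR list.

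The remaining promoter peaks were weak. Vha100-1, the neuronal gene for subunit a, had signal 28.3 (rank 10071) in replicate 1 and 49.8 (rank 9368) in replicate 3. Vha100-5, a further alternate gene for that subunit, had 19.6 (rank 18415) and 33.5 (rank 19481) in replicates 1 and 3. Vha14-1, the principal gene for the rotor subunit F, had 15.6 (rank 27299) and 40.0 (rank 13735) in replicates 1 and 3. Its weak peaks lay downstream of the start, so this principal gene did not share the position of the 11. Vha16-3 had 31.1 (rank 22522), in replicate 3 alone. VhaAC39-1, the principal gene for subunit d, which couples the rotor to the ring, had 25.2 (rank 11978), in replicate 1 alone and 260 bp downstream. The other peaks found in replicate 1 alone, at Vha14-2, Vha36-3 and VhaM9.7-a, had signals of 19.7 (rank 18237), 16.5 (rank 24886) and 16.6 (rank 24593). The lowest signal in the full list of replicate 1 was 14.8 and that of replicate 3 was 26.8, so the weakest of these peaks lay near the ends of the full lists.

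Peaks in gene bodies were counted in the same lists. A gene-body peak had its summit inside the gene and more than 500 bp from each of its TSSs, and the IDR list had such peaks at 2 of 33 Vha genes (6.06%), against 8.45% of coding genes. In the pooled list 10 Vha genes had one (30.3%), against 31.3%. Replicate 1 gave 11 Vha genes (33.3%), against 31.9%, and replicate 3 gave 9 (27.3%), against 32.9%. The Vha shares thus lay near the background or below it in each list. By class, the IDR list had gene-body peaks at 2 of 10 principal, none of 5 single and none of 18 alternate genes. Replicate 1 had them at 4 of the principal, 2 of the single and 5 of the alternate genes (27.8%), against 31.9% of coding genes. Replicate 3 had them at 4, 3 and 2 (11.1%) of the same 3 classes, against 32.9%. The median length was 1732 bp for Vha genes against 2166 bp for all coding genes, and an effect of gene length on these shares was not tested.

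Both IDR gene-body peaks were in introns of principal V0 genes that also had a promoter peak. In Vha100-2, a gene of 8847 bp, the peak spanned chr3R:18393433-18393782, 3320 bp downstream of the nearest start, with signal 210 (rank 3078). It had 51.3 (rank 5119) in replicate 1, just outside the strongest 5038 of that replicate, and 156 (rank 2512) in replicate 3. In Vha16-1, a gene of 7849 bp, it spanned chr2R:6630486-6630835, 1723 bp downstream, with signal 193 (rank 3373), 83.2 (rank 3110) in replicate 1 and 95.3 (rank 4288) in replicate 3. Vha100-2 held 8 gene-body peaks in the pooled list, 6 in replicate 1 and 7 in replicate 3.

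Short motifs were searched on both strands in the 300 bp promoter of each gene, from 250 bp before to 50 bp after its 5′-most start, and in windows of 201 bp centred on summits. CGATA, which is also contained in TATCGATA, the DNA replication-related element (DRE), was present in 19 of 33 Vha promoters (57.6%), against 47.4% of all coding promoters. Among the 11 Vha genes with an IDR promoter peak 10 had it, and among the other 22 Vha genes 9 had it, Vha68-3 included. The same split was not counted over all coding genes, so it has no background here. For Vha100-2 the promoter window was at its 5′-most start, away from its IDR peak, whose summit window held no CGATA. In the summit windows it was present at 7 of 11 Vha genes (63.6%), against 41.6% of all 2509 IDR promoter summits. The copies nearest to the summit lay 5 bp away at Vha36-1, 16 bp at Vha16-5, 20 bp at VhaPPA1-1, 21 bp at Vha13, 42 bp at Vha68-2, 73 bp at Vha68-1 and 89 bp at Vha16-1. The copies at Vha16-5, VhaPPA1-1, Vha13 and Vha68-2 are those printed in capitals.

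The full DRE, TATCGATA, was found in 2 Vha promoters (6.06%), those of Vha55 and VhaSFD, against 9.36% of coding promoters, and in none of the 11 Vha summit windows, against 8.17% of IDR promoter summits. The E-box CACGTG, which is contained in the longer TCACGTGA, was in 3 Vha promoters (9.09%), against 4.20%, and in the summit windows of Vha44 and Vha55 (18.2%), against 2.55%. TCACGTGA was in 1 Vha promoter (3.03%), that of Vha44, against 0.172% or 24 of 13945, and lay 38 bp from the Vha44 summit. GGTCACACT, the core of the M1BP element, was in 3 Vha promoters (9.09%), against 6.05%, and in 1 summit window, that of Vha68-2, whose printed stretch carries it as agtgtgacc. GAGAG was in 9 Vha promoters (27.3%), against 29.7%, and in 3 summit windows (27.3%), against 17.5%. With 11 windows, 1 gene moves a share by 9.09 percentage points, and a match is a run of letters, not a shown binding site.

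The wider lysosome and TOR list held 41 genes outside the Vha name, chosen with earlier results of these data known. An IDR promoter peak was present at 17 of the 41 (41.5%), with the same 23.7% of coding genes as background, and at 13 (31.7%) when the peak went to the nearest TSS only, against 17.0%. The pooled list gave 27 genes (65.9%), against 48.2% of coding genes. Replicate 1 gave 31 (75.6%), against 53.0%, and replicate 3 gave 26 (63.4%), against 45.4%. The share of these genes too thus lay above the background of each list, and the lists rest on the same libraries. The strongest peak was at Sesn, the sestrin that restrains TOR signalling, at chr2R:23713497-23713823, 232 bp upstream, with signal 1687 (rank 103). Lamtor3, a subunit of the Ragulator complex that links the pump to TOR on lysosomes, had signal 1470 (rank 147) at chr2L:17480983-17481281, 95 bp upstream. The third was mTor, through the peak it shared with Vha68-1, and the fourth was car, a Vps33 protein of lysosomal fusion, with signal 565 (rank 812) at chrX:19565820-19566099, 65 bp upstream. ATP6AP2, an accessory protein of the pump that the Vha name rule leaves out, had signal 251 (rank 2531) at chr3R:9260382-9260731, 81 bp upstream. Mitf, a regulator of pump and lysosome genes in flies, had no promoter peak in any of the 4 lists. It and ATP6AP2 are named outside the naming rule, after their values were seen.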

How the data were processed

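Peak lists of 2 ChIP-seq libraries of 1 group were used. Per the deposited notes, the authors derived peaks from each alignment, and from both together, with a control, and filtered the pooled peaks by IDR. The signal of a peak is the value deposited by the authors, on an undefined scale. The q value of each peak, deposited as −log10, ran from 2.45 to 3.81 in the IDR list and ranked nothing here. Chromatin was sonicated to 200 to 800 bp, per the labels. Neither the peak caller nor the IDR version is named in the labels or notes. Control libraries were not analysed here, and the depth is unknown.

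Genes came from Ensembl release 115 (BDGP 6.54) and sequence from genome release 6, where 30540 of 30593 annotated start codons read ATG (99.8%). Coordinates are 1-based. Counts used Python 3.11.15, numpy 2.4.6 and pandas 2.3.3, with figures from matplotlib 3.10.9. Peak assignment was checked on simulated peaks. Promoter distance was 500 bp, with 250 and 1000 bp as alternatives. Others were the stronger 2519 IDR peaks, the nearest TSS only, single replicates, and overlap of 50% or 1 bp. No test was made, since there is 1 group. Members and lists were chosen with earlier results of these data known. The named genes are all members, in full where a peak is in the IDR list or in a replicate, the genes sharing a promoter peak, and the 4 strongest of the lysosome and TOR list. COX8 and noi are named as neighbours of strong peaks of replicate 1.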

Additional observations from a re-analysis of the deposited data

How the results depend on the processing

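Of 42 alternatives over 8 counts, 27 stayed within 1.5 times the reported count and 15 did not. The 11 Vha promoter peaks became 7 in the stronger 2519 IDR peaks, against 14.8% of coding genes, and 7 with the nearest TSS only, against 17.0%. Without members of shared peaks they became 5, and the share of coding genes was not counted for that setting. They were 9 at 250 bp, against 19.1% of coding genes, and 12 at 1000 bp, against 27.1%. With the strongest peaks of 1 replicate in place of the IDR list they ranged from 10 to 16. The 10 were without replicate 1, against 21.8% of coding genes, and the 16 without replicate 3, against 26.8%. The 2 alternate genes became 1 at 250 bp, in the stronger 2519, with the nearest TSS only or without subunit e, and ranged from 1 without replicate 1 to 3 without replicate 3. The principal count kept within 4 to 8. For both classes the share of coding genes at each setting is the one given above, and 23.7% where only subunit e was left out. Leaving out subunit e and the members of shared peaks were alternatives chosen after seeing the data. The 2 gene-body counts became 0 in the stronger 2519 and ranged from 1 without replicate 3 to 2 without replicate 1. For gene-body peaks the share of coding genes was not counted at these settings, so these changes have no background here. The 17 lysosome and TOR genes became 9 in the stronger 2519, against 14.8% of coding genes. Limiting each replicate to its strongest 5038 changed 25 to 16 in replicate 1 and 18 to 10 in replicate 3. Peaks found in both replicates were 7 at 50% reciprocal overlap, 11 at 1 bp and 11 with summits within 100 bp. Stricter settings count fewer peaks by construction, and other causes were not tested. No paired analysis was possible because the samples form 1 group. Depth was unknown, so an absent peak is one not listed, not a site shown to be unbound.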
